A study of Mus musculus with 12 samples.

Results

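The genes described here encode 40 enzymes and partners that silence chromatin: Polycomb proteins, histone H3 lysine 9 (H3K9) methyltransferases and the HP1 proteins, DNA methylation enzymes and readers, and histone deacetylases with their corepressors. They were chosen by name for these roles, though with earlier results of these data known, and 37 of the 40 were matched to a probe set. Hdac1, Cbx3 and Suv39h1 were not analysed here. Their RNA was read from C166 cells, a mouse line that the labels call endothelial, collected at day 7 after transduction; 12 arrays fall into 3 groups of 4. All cells carried a lentiviral vector with the GFP marker gene, given at a multiplicity of infection of 10. For all 12 arrays the sample records also list a confluency of 20% and 72 h for the medium change. The GFP group received no shRNA. The VEGF-down and VEGF-up groups received vectors that in addition encode an shRNA against different stretches of the promoter of Vegfa, the gene of the angiogenic factor VEGF-A, and the groups are named for the effect on Vegfa. Since the GFP vector holds no shRNA, carrying any shRNA and carrying that particular shRNA cannot be told apart in a comparison against GFP. Whether replicates come from separate cultures is not stated, and the spread that the p-values measure may be technical.

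Silencing by chromatin works in layers. Polycomb repressive complex 2 (PRC2) methylates lysine 27 of histone H3, and Polycomb repressive complex 1 (PRC1) ubiquitinates histone H2A and compacts the nucleosomes that PRC2 has marked. Methylated H3K9 is bound by HP1 proteins, methyl groups on DNA are copied at replication and read by methyl-CpG binding proteins, and deacetylases are brought to genes by corepressors. In endothelial cells these enzymes keep genes of other lineages off, and small RNAs aimed at promoters have been described to act through some of the same proteins.

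Levels are log2 array intensities, and a level of 3.09 or less was taken as background. Mean Vegfa levels differed in the directions that the group names give, at 7.20 in GFP, 6.54 in VEGF-down and 7.54 in VEGF-up cells. The adjusted p-values against GFP by limma were 5.76e-05 and 0.0134. Only 7 of 20 endothelial markers were above background by their mean over the 12 arrays (Kdr, Flt1, Esam, Mcam, Cd34, Egfl7 and Ets1), and Pecam1, Cdh5, Tie1, Tek and Vwf were at or below it, so the label is not borne out by these defining markers. The summed log2 level of the 20 endothelial markers was 9.33 to 9.42 in GFP, 9.93 to 10.03 in VEGF-down and 9.34 to 9.51 in VEGF-up cells. That sum weighs the brightest markers most: in VEGF-down cells 16 of the 20 were lower and 4 higher than in GFP, with a median of -0.01, and only Kdr (3.33) and Cd34 (0.31) rose and Ets1 (-0.22) fell. Of 13 smooth muscle and fibroblast markers, 12 were above background (not Myh11), with summed log2 levels of 15.21 to 15.27, 14.93 to 14.97 and 15.07 to 15.13 in the same order. All 13 were lower in VEGF-down than in GFP cells; 10 fell and 0 rose by limma (12 and 0 at an unadjusted p under 0.05), with a median of -0.56 and a lowest difference of -3.13, for Postn. In VEGF-up cells 5 of the 13 fell and 2 rose, with a median of -0.05. Of 10 blood cell markers, 4 were above background, Ptprc and Itgam were not, and the summed levels were 9.75 to 10.06, 9.68 to 9.77 and 8.95 to 9.12. These are bulk samples, in which fewer cells of a type and less RNA per cell cannot be told apart, and the part of these markers in the results below was not tested.

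Against GFP cells, VEGF-down cells had lower RNA of most of the silencing genes that passed the test. Of the 37 measured genes, 16 fell, 7 rose and 14 did not pass (62.2% called, against 31% of all 17306 probe sets tested). The background was 16.4% for falls and 14.6% for rises, or 22.1% and 22.9% above the background level. Among the 35 genes above background, 22 were called (62.9%), where 45% of all probe sets above background were. The median difference over the 37 genes was -0.05 on the log2 scale, beside -0.01 for all probe sets. The falls were led by Bmi1, Jarid2, Suz12 and Sirt1, and the rises by Tet2, Setdb1, Mbd2 and Mbd1. In VEGF-up cells 1 of the 37 genes rose, 1 fell and 35 did not pass, which is 5.41% called against a background of 13.2% (6.73% higher and 6.51% lower). Among those above background 5.71% were called, against 20.8% of all probe sets above background (10.7% higher, 10.1% lower). The arrays did not overlap with GFP for 25 of the 37 genes in VEGF-down and 5 of the 37 in VEGF-up cells, beside 37.1% and 18% of all probe sets. The share among probe sets above background was not taken. The 25 include Cbx1 (-0.01), Suv39h2 (-0.01), Ehmt2 (-0.03) and Cbx2 (-0.07), which did not pass the test. By role, VEGF-up cells had no call among 9 DNA methylation, 7 PRC1 and 6 deacetylase and corepressor genes in limma, where 1, 0 and 3 had an unadjusted p under 0.05. Both comparisons use the same 4 GFP arrays, so their values are given side by side.

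**Figure D1:**
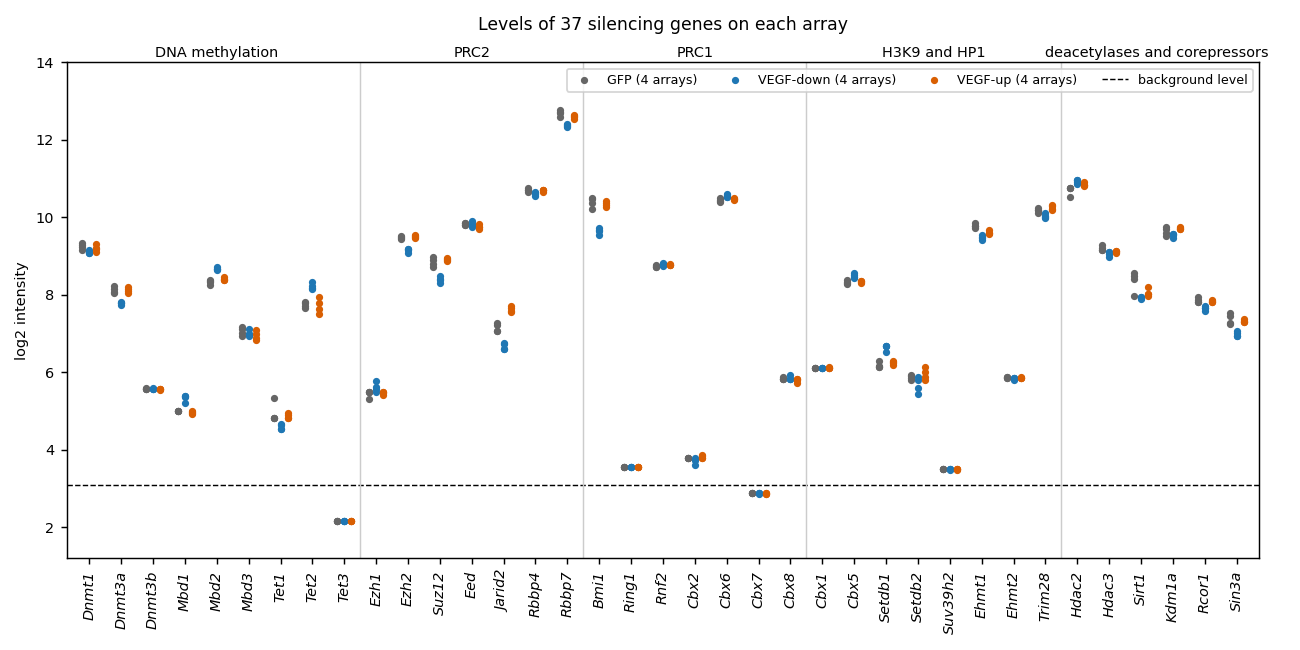
Log2 array intensity (vertical axis) of each of the 37 measured silencing genes (horizontal axis, grouped by role) on all 12 arrays, coloured by group, with the background level of 3.09 as a horizontal line. Only Tet3 and Cbx7 lie below the line; levels of different probe sets cannot be compared with each other, only the groups within a gene.

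The test read the arrays as the authors scaled them. When the arrays were instead scaled to 23 probe sets of the poly-A spike-in controls, the median of all probe sets shifted to -0.27 in VEGF-down and -0.14 in VEGF-up cells against GFP. Under that scaling 30 of the 37 genes fell and 2 rose in VEGF-down cells, and only Setdb1 (0.20) and Tet2 (0.22) kept a called rise. Of all 17306 probe sets, 13913 fell and 827 rose under it, so these counts follow the shift of the whole array. The share of rises among all called probe sets in VEGF-down cells was 47.1% as reported, 23.8% with each array centred on its median and 5.61% with spike-in scaling. In VEGF-up cells those shares were 50.9%, 60.2% and 8.24%. The rises below are therefore relative to the other genes on the array. The mean log2 level of the spike-ins itself varied within groups. It ran from 7.20 to 7.45 in GFP, 7.46 to 7.64 in VEGF-down and 7.41 to 7.48 in VEGF-up arrays. Spike-in scaling is thus an alternative and not a firm reference.

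With the arrays as deposited, PRC2 was the role in which the called genes moved 1 way in VEGF-down cells. Of its 7 genes, 5 fell and none rose by limma (1, Ezh1, at an unadjusted p under 0.05), with a median difference of -0.32. That is 71.4% called, where 45% of all probe sets above background were called and 22.1% were lower. Ezh1 passed as a rise in 3 of 16 alternative analyses. These were median centring (0.15), only probe sets above background (0.17) and without VEGF-down replicate 1 (0.21). Rbbp4, 1 of the 5 falls, lost its call in 6 of 16. Jarid2, a DNA-binding partner that helps bring PRC2 to its targets, differed between all 3 groups. Its log2 levels were 7.07, 7.06, 7.21 and 7.28 in GFP cells, 6.59, 6.75, 6.73 and 6.59 in VEGF-down cells and 7.72, 7.57, 7.65 and 7.56 in VEGF-up cells. No value of any group lay within the range of another, with VEGF-down lowest and VEGF-up highest. Against GFP, Jarid2 was 1.40-fold lower with the VEGF-down shRNA, -0.49 ± 0.06 (SE, adjusted p = 9.67e-05) in log2, and 1.39-fold higher with the VEGF-up shRNA, 0.47 ± 0.06 (SE, adjusted p = 4.19e-04). The VEGF-up rise was 0.33 and still passed with spike-in scaling. It was also listed in the authors' deposited table for VEGF-up cells, with a fold change of 1.34 and a q-value of 0.0114.

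Suz12, the subunit that holds the PRC2 core together, had log2 levels of 8.80, 8.98, 8.90 and 8.71 in GFP cells, 8.31, 8.40, 8.39 and 8.47 in VEGF-down cells and 8.94, 8.90, 8.93 and 8.87 in VEGF-up cells. All VEGF-down values were below the other 8. Suz12 was 1.37-fold lower than in GFP, at -0.45 ± 0.05 (SE, adjusted p = 6.29e-05), and its VEGF-up difference was 0.06 ± 0.05 (SE, adjusted p = 0.397). Ezh2, the catalytic subunit that predominates in dividing cells, had log2 levels of 9.50, 9.46, 9.45 and 9.53 in GFP cells, 9.09, 9.15, 9.18 and 9.18 in VEGF-down cells and 9.52, 9.55, 9.50 and 9.47 in VEGF-up cells. Again the 4 VEGF-down arrays stood below all others, with a difference of -0.33 ± 0.03 (SE, adjusted p = 2.46e-06) or 1.26-fold lower, while the VEGF-up difference was 0.03 ± 0.03 (SE, adjusted p = 0.485). Rbbp7, a histone-binding subunit shared with deacetylase complexes, was at 12.71, 12.58, 12.71 and 12.77 in GFP cells, 12.40, 12.33, 12.37 and 12.41 in VEGF-down cells and 12.63, 12.55, 12.58 and 12.62 in VEGF-up cells. VEGF-down values were again the lowest, at -0.32 ± 0.04 (SE, adjusted p = 4.92e-05) against GFP, whereas VEGF-up values overlapped those of GFP.

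The remaining PRC2 genes had smaller differences. Rbbp4, the paralog of Rbbp7, passed the test at -0.09 ± 0.03 (SE, adjusted p = 0.0299) in VEGF-down cells, but its arrays overlapped with those of GFP. Eed, which reads the mark that PRC2 places, did not pass, with a VEGF-down difference of -0.01 (95% interval -0.08 to 0.07). Ezh1, the catalytic subunit that prevails in resting cells, was the only PRC2 gene with a positive VEGF-down difference, 0.17 ± 0.06 (SE, adjusted p = 0.0575), and did not pass. In GFP cells Ezh1 was 5.49 on 3 arrays and 5.31 on replicate 4.

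Promoter windows of 300 bases, from 250 bases before to 50 after a transcript start, were found for 33 of the 37 genes in a RefSeq table of build GRCm38.p6, 41 windows in all. A search of both strands for an E2F box, the letters TTTCCCGC or TTTGGCGC, found it in 3 of the 41 windows (7.32%), against 1.57% of all 32841 windows in the table. These letters contain CG, and the 41 windows hold more CpG, a median of 29 against 7 in all windows. The 2 rates were not matched for CpG, so whether the box is enriched beyond CpG was not tested. The 3 windows belong to Suz12, Ezh2 and Dnmt1, all of which fell in VEGF-down cells. The box was in 3 of 21 windows of genes that fell, 0 of 6 of genes that rose and 0 of 14 of genes not called. Further windows of Dnmt1 do not hold it, and a part of E2F in the falls was not tested. The 3 windows are printed here beside a window of Jarid2, which moved in opposite directions in both shRNA groups, and that of Bmi1, which had the steepest fall. Neither Jarid2 nor Bmi1 holds an E2F box there. Each is written 5′ to 3′ on the strand of the gene, and capitals mark matches to the E2F letters, to CCAAT, or to the NRF1 motif (GCGC, any base, TGCGC) on either strand. In the Dnmt1 window, matches to CCAAT on the 2 strands overlap by 2 bases.
Suz12, chr11:79992856-79993155, plus strand: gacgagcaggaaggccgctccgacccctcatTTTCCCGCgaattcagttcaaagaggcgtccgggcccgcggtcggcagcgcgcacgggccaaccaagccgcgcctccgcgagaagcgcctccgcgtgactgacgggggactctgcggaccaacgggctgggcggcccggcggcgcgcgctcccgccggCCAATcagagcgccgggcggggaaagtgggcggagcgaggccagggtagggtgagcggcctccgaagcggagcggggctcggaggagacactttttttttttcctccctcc
Ezh2, chr6:47594981-47595280, minus strand: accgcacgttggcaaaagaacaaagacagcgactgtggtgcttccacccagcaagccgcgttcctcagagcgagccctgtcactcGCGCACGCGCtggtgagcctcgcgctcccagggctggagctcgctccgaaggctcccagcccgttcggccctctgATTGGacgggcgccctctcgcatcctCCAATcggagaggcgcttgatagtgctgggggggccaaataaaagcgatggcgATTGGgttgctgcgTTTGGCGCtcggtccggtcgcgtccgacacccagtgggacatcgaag
Dnmt1, chr9:20952574-20952873, minus strand: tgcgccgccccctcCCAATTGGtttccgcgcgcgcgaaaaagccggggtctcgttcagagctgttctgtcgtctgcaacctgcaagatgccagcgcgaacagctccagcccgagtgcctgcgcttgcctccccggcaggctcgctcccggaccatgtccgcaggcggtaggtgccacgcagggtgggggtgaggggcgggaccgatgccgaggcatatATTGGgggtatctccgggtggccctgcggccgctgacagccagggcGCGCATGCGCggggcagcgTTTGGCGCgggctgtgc
Jarid2, chr13:44730524-44730823, plus strand: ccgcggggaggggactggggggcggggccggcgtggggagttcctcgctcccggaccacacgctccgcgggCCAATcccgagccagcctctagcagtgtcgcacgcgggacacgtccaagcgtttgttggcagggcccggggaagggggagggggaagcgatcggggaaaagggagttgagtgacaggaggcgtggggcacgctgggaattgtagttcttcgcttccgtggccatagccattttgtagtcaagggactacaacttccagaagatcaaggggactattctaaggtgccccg
Bmi1, chr2:18676768-18677067, plus strand: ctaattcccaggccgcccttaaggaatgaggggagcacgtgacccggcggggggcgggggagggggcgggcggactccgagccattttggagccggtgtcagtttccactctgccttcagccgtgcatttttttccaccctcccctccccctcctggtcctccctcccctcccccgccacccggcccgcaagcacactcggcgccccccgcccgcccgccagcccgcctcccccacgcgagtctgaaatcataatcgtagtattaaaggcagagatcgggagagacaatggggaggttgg

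The CCAAT box, bound by NF-Y, was in 48.8% of the silencing gene windows and in 37.4% of all windows. The NRF1 letters were in 24.4% against 4.60%, the ETS letters CCGGAAG in 2.44% against 8.86%, and the cyclic AMP response letters TGACGTCA in 4.88% against 1.79%. These promoters are rich in CpG: 87.8% of the 41 windows had an observed to expected CpG ratio of 0.6 or more, where 35.8% of all windows did. Such matches describe the letters of the windows and not binding, and windows of the same gene are not independent. All of these letters except CCAAT contain CG, and the rates were not matched for CpG.

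In PRC1, the movement lay in Bmi1, while 5 of the 7 genes did not pass in VEGF-down cells. Of the 6 above background 33.3% were called, beside 45% of all probe sets above background. Bmi1, the RING-finger partner that stimulates the ubiquitin ligase and represses the Cdkn2a locus, had log2 levels of 10.48, 10.38, 10.49 and 10.21 in GFP cells, 9.53, 9.72, 9.63 and 9.68 in VEGF-down cells and 10.31, 10.36, 10.42 and 10.27 in VEGF-up cells. Every VEGF-down array was at 9.72 or below, under all GFP and VEGF-up arrays, and the latter overlapped each other. Bmi1 was 1.68-fold lower than in GFP, at -0.75 ± 0.06 (SE, adjusted p = 4.07e-06), the largest change among the 37 genes in this comparison, against -0.05 ± 0.06 (SE, adjusted p = 0.570) in VEGF-up cells. The authors' deposited table for VEGF-down cells lists it with a fold change of -1.68 and a q-value of 0.00409, and no other of these genes. The smallest fold in the authors' deposited tables is 1.41 for VEGF-down and 1.22 for VEGF-up cells.

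Cbx6, a chromobox protein that reads H3K27 methylation, was the PRC1 gene that rose in VEGF-down cells. Its log2 levels were 10.50, 10.44, 10.39 and 10.41 in GFP cells, 10.52, 10.51, 10.59 and 10.59 in VEGF-down cells and 10.44, 10.49, 10.47 and 10.47 in VEGF-up cells, and the VEGF-down arrays were above all GFP arrays. The difference was small, 0.12 ± 0.03 (SE, adjusted p = 0.00688) or 1.09-fold, and turned to -0.14 with spike-in scaling. Rnf2 and Ring1, the ubiquitin ligases of PRC1, did not pass, with VEGF-down differences of 0.04 (95% interval 0.0032 to 0.08) and -0.0021 (-0.02 to 0.02). Cbx2 and Cbx8, other chromobox readers, were at -0.07 and 0.02 and did not pass, and Cbx7 was below background in every group. In VEGF-up cells none of the 7 PRC1 genes was called by limma, and 0 had an unadjusted p under 0.05.

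**Figure D2:**
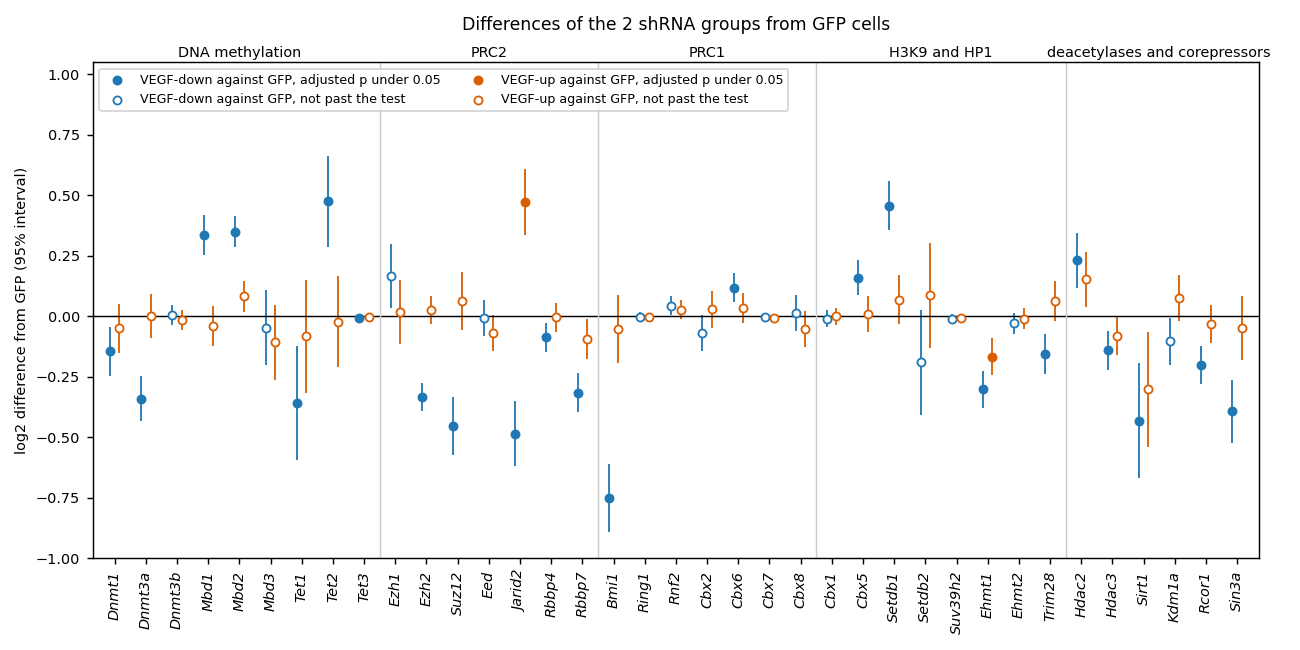
Log2 difference from GFP cells (vertical axis) for each of the 37 measured silencing genes, with 95% intervals from limma; blue is VEGF-down, orange is VEGF-up, and filled points passed the test. The VEGF-down points run from -0.75 for Bmi1 to 0.48 for Tet2, while in VEGF-up cells only Jarid2 (0.47) and Ehmt1 (-0.17) are filled.

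Genes of DNA methylation were called both ways in VEGF-down cells: of the 8 above background, 3 fell and 3 rose, and the ninth, Tet3, was called lower from below background. Those 8 had 75% called, beside 45% of all probe sets above background. Dnmt3a, which sets new methylation, had log2 levels of 8.22, 8.04, 8.15 and 8.07 in GFP cells, 7.80, 7.74, 7.78 and 7.79 in VEGF-down cells and 8.19, 8.05, 8.15 and 8.09 in VEGF-up cells. The VEGF-down arrays lay below all others, at -0.34 ± 0.04 (SE, adjusted p = 7.67e-05) or 1.27-fold lower than GFP, and the VEGF-up difference was 0.00096 ± 0.04 (SE, adjusted p = 0.989). Dnmt1, the maintenance enzyme that copies methylation at replication, had log2 levels of 9.27, 9.16, 9.23 and 9.34 in GFP cells, 9.09, 9.11, 9.07 and 9.16 in VEGF-down cells and 9.22, 9.30, 9.11 and 9.17 in VEGF-up cells. Its VEGF-down values reached up to the lowest GFP value without crossing it, and the difference of -0.14 ± 0.05 (SE, adjusted p = 0.0342) lost its call in 8 of 16 alternative analyses. Dnmt3b, the other de novo enzyme, varied over a range of 0.07 in all 12 arrays and did not pass, with a difference of 0.0036 (95% interval -0.04 to 0.05).

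The oxidases that start the removal of methylation were called in opposite directions. Tet2, which oxidises methylcytosine, had log2 levels of 7.80, 7.66, 7.70 and 7.79 in GFP cells, 8.23, 8.32, 8.14 and 8.17 in VEGF-down cells and 7.79, 7.62, 7.50 and 7.95 in VEGF-up cells. All VEGF-down values were above the other 8, 1.39-fold higher than GFP at 0.48 ± 0.08 (SE, adjusted p = 0.00122), and the VEGF-up difference was -0.02 ± 0.08 (SE, adjusted p = 0.869). Tet1, its paralog, had log2 levels of 5.34, 4.83, 4.81 and 4.82 in GFP cells, 4.63, 4.54, 4.66 and 4.52 in VEGF-down cells and 4.95, 4.81, 4.90 and 4.81 in VEGF-up cells. The VEGF-down arrays were the lowest, at -0.36 ± 0.11 (SE, adjusted p = 0.0251), but GFP replicate 1 stood apart from the other GFP arrays, and without it the difference was -0.23 with an adjusted p of 0.00374. Tet3 was below background in every group, so its call in VEGF-down cells describes no measured level.

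Among the 3 Mbd genes, the methyl-CpG readers Mbd2 and Mbd1 rose in VEGF-down cells and Mbd3 did not pass. Mbd2, which brings the NuRD deacetylase complex to methylated DNA, had log2 levels of 8.37, 8.35, 8.25 and 8.33 in GFP cells, 8.72, 8.66, 8.67 and 8.65 in VEGF-down cells and 8.46, 8.38, 8.40 and 8.39 in VEGF-up cells. The 3 groups did not overlap, with GFP lowest, but only the VEGF-down difference of 0.35 ± 0.03 (SE, adjusted p = 3.74e-06) or 1.27-fold passed, against 0.08 ± 0.03 (SE, adjusted p = 0.0967) in VEGF-up cells. Mbd1, a reader that couples to H3K9 methylation, had log2 levels of 5.00, 5.00, 4.99 and 5.00 in GFP cells, 5.21, 5.40, 5.35 and 5.37 in VEGF-down cells and 4.99, 4.96, 4.93 and 4.93 in VEGF-up cells. Its VEGF-down arrays were above all others, at 0.34 ± 0.04 (SE, adjusted p = 4.03e-05), and the GFP arrays ran from 4.99 to 5.00 only. The Mbd1 SD was 0.0019 in GFP and 0.086 in VEGF-down cells. Whether the GFP level is a floor of the probe set, which would make the rise a bound, was not tested. With spike-in scaling the differences were 0.09 for Mbd2 and 0.08 for Mbd1 and neither passed. Mbd3, the NuRD subunit, was at -0.05 ± 0.07 (SE, adjusted p = 0.588).

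**Figure D3:**
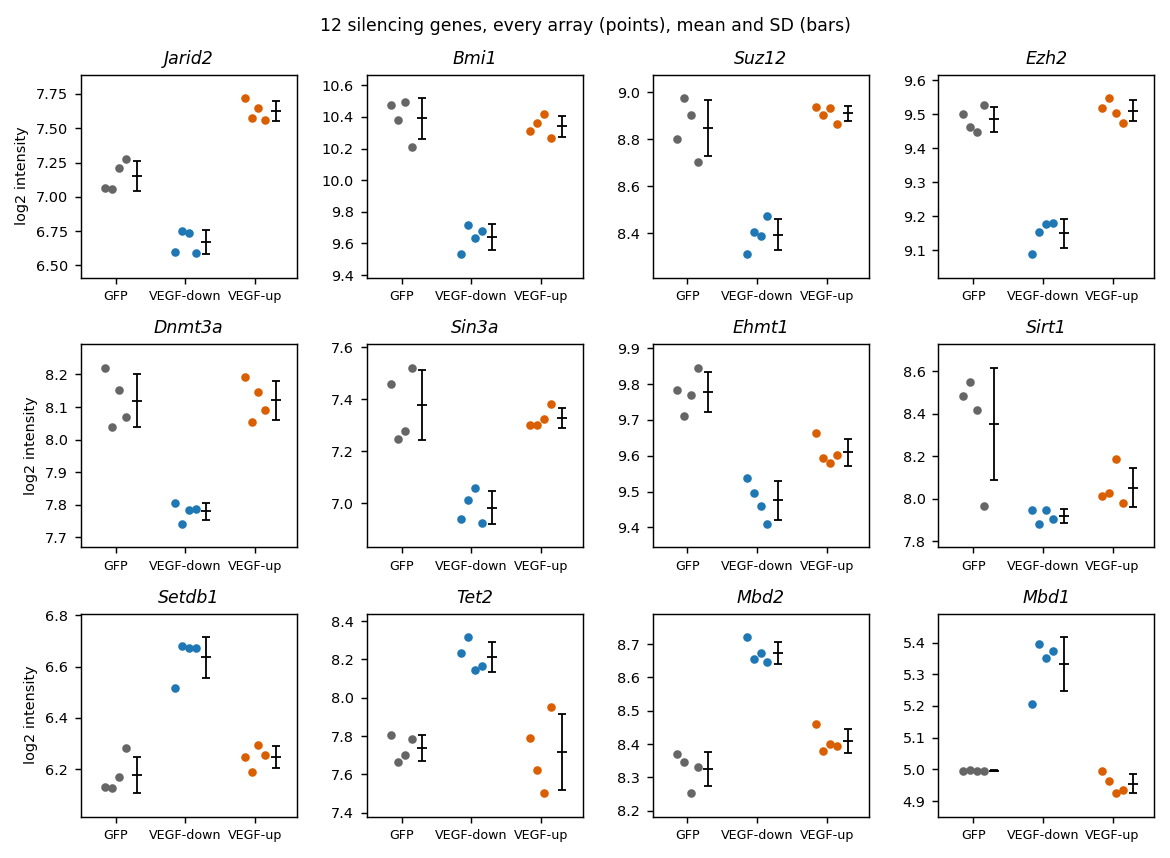
Log2 array intensity (vertical axis) on each array (points) by group (horizontal axis) for 12 silencing genes, each panel with its own scale that does not start at 0; bars are the group mean with SD. VEGF-down arrays do not overlap with GFP arrays in these panels, and Jarid2 is the gene whose VEGF-up arrays lie above both other groups. In the Sirt1 panel the lowest GFP array (7.96) is next to the highest VEGF-down array (7.95).

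Of the 8 H3K9 and HP1 genes, 2 were higher and 2 lower in VEGF-down cells, 50% called, which is near the 45% of all probe sets above background. Setdb1, the methyltransferase that silences retroelements, had log2 levels of 6.13, 6.13, 6.17 and 6.28 in GFP cells, 6.52, 6.68, 6.67 and 6.67 in VEGF-down cells and 6.25, 6.19, 6.29 and 6.25 in VEGF-up cells. All VEGF-down arrays exceeded the others, 1.37-fold above GFP at 0.46 ± 0.05 (SE, adjusted p = 1.61e-05), whereas VEGF-up was at 0.07 ± 0.05 (SE, adjusted p = 0.296) and overlapped GFP. Trim28, the corepressor (KAP1) that zinc finger proteins use to bring in Setdb1, went the other way, with log2 levels of 10.19, 10.19, 10.12 and 10.25 in GFP cells, 10.00, 9.99, 10.10 and 10.02 in VEGF-down cells and 10.21, 10.29, 10.18 and 10.31 in VEGF-up cells. VEGF-down values were below those of both other groups and the difference was -0.16 ± 0.04 (SE, adjusted p = 0.00771), or 1.12-fold lower, against 0.06 ± 0.04 (SE, adjusted p = 0.253) in VEGF-up cells.

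Ehmt1 (GLP), a subunit of the enzyme that dimethylates H3K9 in euchromatin, was the only 1 of the 37 genes called lower in both shRNA groups. This holds for the arrays as deposited, and some alternatives below add Rbbp7 or Sirt1. Its log2 levels were 9.78, 9.71, 9.77 and 9.85 in GFP cells, 9.54, 9.50, 9.46 and 9.41 in VEGF-down cells and 9.66, 9.59, 9.58 and 9.60 in VEGF-up cells. The 3 groups did not overlap: VEGF-down was lowest and GFP highest. The difference from GFP was -0.30 ± 0.03 (SE, adjusted p = 4.30e-05) in VEGF-down and -0.17 ± 0.03 (SE, adjusted p = 0.00745) in VEGF-up cells, or 1.23-fold and 1.12-fold lower. Ehmt2 (G9a), its partner, did not pass, at -0.03 (95% interval -0.07 to 0.01) and -0.01 (-0.05 to 0.03).

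Cbx5 (HP1 alpha), which binds methylated H3K9, had log2 levels of 8.39, 8.30, 8.29 and 8.34 in GFP cells, 8.43, 8.45, 8.57 and 8.51 in VEGF-down cells and 8.32, 8.37, 8.35 and 8.31 in VEGF-up cells. VEGF-down values were above the others at 0.16 ± 0.03 (SE, adjusted p = 0.00330), and with spike-in scaling the difference was -0.10. Cbx1 (HP1 beta) stayed at 6.10 to 6.13 over all arrays and did not pass. Setdb2 was at -0.19 ± 0.10 (SE, adjusted p = 0.145) in VEGF-down cells with a wide spread, and Suv39h2, an enzyme of constitutive heterochromatin, varied over a range of 0.03. Ring1 (0.01), Suv39h2, Cbx1 (0.03), Dnmt3b and Ehmt2 (0.08) varied over the 12 arrays about as little as background probe sets, whose median range was 0.05, and whether these probe sets could register a change was not tested. The 95th percentile of that background range was 0.45, and 22 of the 37 genes varied by no more than this, among them the called genes Rbbp7 (0.43), Ehmt1 (0.44), Rcor1, Trim28, Hdac3, Cbx5, Dnmt1, Cbx6 and Rbbp4.

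Deacetylases and corepressors mostly fell in VEGF-down cells, 4 of 6 genes, with 1 higher and a median difference of -0.17. Of all probe sets above background, 45% were called and 22.1% were lower. Sin3a, the scaffold of the SIN3 deacetylase complex, had log2 levels of 7.46, 7.25, 7.28 and 7.52 in GFP cells, 6.94, 7.01, 7.06 and 6.92 in VEGF-down cells and 7.30, 7.30, 7.32 and 7.38 in VEGF-up cells. The VEGF-down arrays lay below all others, 1.31-fold lower than GFP at -0.39 ± 0.06 (SE, adjusted p = 3.64e-04), and VEGF-up was at -0.05 ± 0.06 (SE, adjusted p = 0.558). Rcor1 (CoREST), the scaffold that joins Kdm1a to deacetylases, had log2 levels of 7.86, 7.82, 7.95 and 7.81 in GFP cells, 7.67, 7.58, 7.71 and 7.67 in VEGF-down cells and 7.86, 7.80, 7.84 and 7.80 in VEGF-up cells, with a VEGF-down difference of -0.20 ± 0.04 (SE, adjusted p = 0.00117) and no overlap with GFP. Kdm1a itself, a histone demethylase, was at -0.10 ± 0.04 (SE, adjusted p = 0.0884) and did not pass.

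The class I deacetylases Hdac2 and Hdac3 were called in opposite directions in VEGF-down cells, a split not seen with spike-in scaling, where Hdac2 was at -0.03. Hdac2, a catalytic subunit of SIN3, NuRD and CoREST complexes, had log2 levels of 10.76, 10.74, 10.75 and 10.52 in GFP cells, 10.87, 10.97, 10.90 and 10.96 in VEGF-down cells and 10.84, 10.83, 10.90 and 10.81 in VEGF-up cells. Both shRNA groups lay above the GFP arrays, and GFP replicate 4 was lower than the other GFP arrays. The VEGF-down difference of 0.23 ± 0.05 (SE, adjusted p = 0.00535) passed and the VEGF-up difference of 0.15 ± 0.05 (SE, adjusted p = 0.0861) did not. Hdac3, the enzyme of the NCoR and SMRT corepressors, had log2 levels of 9.16, 9.15, 9.19 and 9.28 in GFP cells, 8.97, 9.11, 9.10 and 9.04 in VEGF-down cells and 9.13, 9.13, 9.08 and 9.12 in VEGF-up cells. Both shRNA groups lay below the GFP arrays, at -0.14 ± 0.04 (SE, adjusted p = 0.0132) for VEGF-down and -0.08 ± 0.04 (SE, adjusted p = 0.177) for VEGF-up, and only the former passed.

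Sirt1, the NAD-dependent deacetylase, had log2 levels of 8.48, 8.55, 8.42 and 7.96 in GFP cells, 7.95, 7.88, 7.95 and 7.91 in VEGF-down cells and 8.01, 8.03, 8.19 and 7.98 in VEGF-up cells. Of the GFP arrays 3 were at 8.42 or above, and GFP replicate 4 was next to the VEGF-down values. VEGF-down was 1.35-fold lower at -0.43 ± 0.11 (SE, adjusted p = 0.010), and VEGF-up, at -0.30 ± 0.11 (SE, adjusted p = 0.102), did not pass. Without GFP replicate 4 the VEGF-up difference was -0.43 with an adjusted p of 0.000318.

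Set against each other, the shRNA groups differed in 19 of the 37 genes, with 13 higher and 6 lower in VEGF-up than in VEGF-down cells. That is 51.4%, against 30.6% of all probe sets (15.1% higher and 15.5% lower), and among genes above background 54.3% against 48.2%, which is close. Jarid2 differed most, 1.94-fold higher at 0.96 ± 0.06 (SE, adjusted p = 3.56e-07), followed by Bmi1 at 0.70 ± 0.06 (SE, adjusted p = 6.02e-06) and Suz12 at 0.52 ± 0.05 (SE, adjusted p = 1.93e-05). Ezh2 (0.36), Sin3a (0.34) and Dnmt3a (0.34) were also higher in VEGF-up cells, and 5 of the 7 PRC2 genes were higher and none lower (1 lower at an unadjusted p under 0.05). Tet2 (-0.50), Setdb1 (-0.39), Mbd1 (-0.38) and Mbd2 (-0.27) were lower. Kdm1a, called in neither comparison against GFP, was 0.18 ± 0.04 (SE, adjusted p = 0.00742). Cbx2 was at 0.10 ± 0.03 (SE, adjusted p = 0.0474), and at 0.06 with an adjusted p of 0.0628 without VEGF-down replicate 3. The smallest of these calls were not stable: Rbbp4 (1 of the 5 PRC2 genes) and Cbx6 each lost theirs in 8 of 16 alternative analyses, and Cbx2 in 7 of 16, including 6 of the 8 that left out an array.

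Further genes of the same pathways, 109 measured, were counted beside the 37. In VEGF-down cells 33 fell and 13 rose (42.2% called), and in VEGF-up cells 9 fell and 13 rose (20.2%). Of these genes, 101 were above background, where 45.5% and 21.8% were called, close to the 45% and 20.8% of all probe sets above background.

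Of 26 other Polycomb genes, 8 fell and 2 rose in VEGF-down cells. E2f6, which recruits a variant PRC1 to germline and cell cycle promoters, fell most, at -1.77 ± 0.07 (SE, adjusted p = 1.20e-08). Bcor, a scaffold of another variant PRC1, was at -0.54, Bap1, the deubiquitinase that reverses the PRC1 mark, at -0.44, and Kdm6b, a demethylase of the PRC2 mark, at -0.40. In VEGF-up cells 5 rose and 1 fell, led by Scmh1 (0.32), Kdm6b (0.27), E2f6 (0.26) and Pcgf5 (0.15), none of which passed with spike-in scaling.

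Of 13 other DNA methylation genes, 4 fell and 2 rose in VEGF-down cells. Gadd45b, a stress protein tied to active demethylation, was at -0.76 ± 0.06 (SE, adjusted p = 2.36e-06), Hells, a remodeller that methylation of repeats requires, at -0.45, and Usp7, a deubiquitinase that binds Dnmt1, at -0.35. Zbtb4, a methyl-CpG reader, rose by 0.24, and was at -0.02 with spike-in scaling. In VEGF-up cells Gadd45b (-0.42) and Uhrf2 (-0.26) fell and Gadd45a (0.41) rose.

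Of 27 other H3K9 and heterochromatin genes, 7 fell and 4 rose in VEGF-down cells. Chaf1b, a subunit of the replication-coupled histone chaperone CAF-1, was at -0.97 ± 0.14 (SE, adjusted p = 2.20e-04), Kdm4a, an H3K9 demethylase, at -0.42 and Wiz, a partner of Ehmt1, at -0.33. Tasor, the scaffold of the HUSH complex that acts with Setdb1, rose by 0.88, and by 0.62 with spike-in scaling. In VEGF-up cells 4 rose and 2 fell, and the largest were Kmt5a (0.31), Pphln1 (0.24), Kdm3a (-0.18) and Morc2a (0.17); the 3 rises did not pass with spike-in scaling.

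Of 43 other deacetylase and corepressor genes, 14 fell and 5 rose in VEGF-down cells. Sap18, a SIN3-associated protein, rose by 1.37, and by 1.11 with spike-in scaling. Ctbp2, a corepressor, was at -0.63, and the deacetylases Hdac5 and Hdac11 were at -0.58 and -0.49. Hdac11 also fell in VEGF-up cells (-0.44), where 4 fell and 3 rose, with Arid4b at -0.22, and Suds3 (0.24) and Tbl1xr1 (0.20) among the rises, neither of which passed with spike-in scaling.

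**Figure D4:**
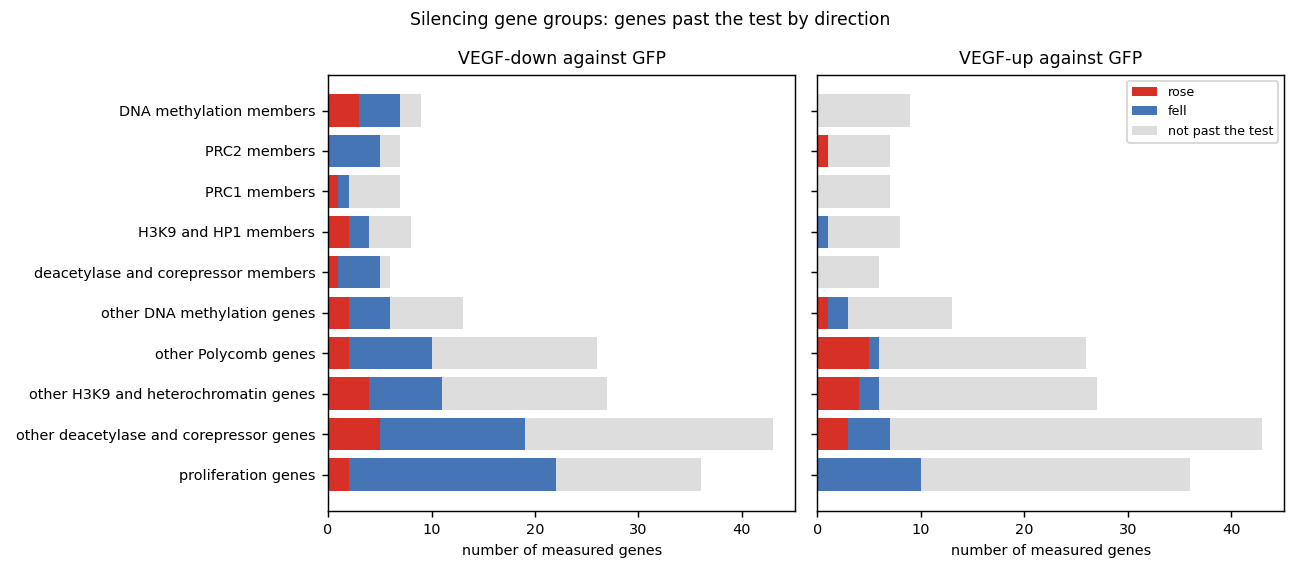
Number of measured genes (horizontal axis) that rose, fell or did not pass the test for each role of the silencing genes (members), the further genes of each pathway, and proliferation genes; left, VEGF-down, and right, VEGF-up against GFP. PRC2 has 5 of 7 genes lower and none higher in VEGF-down cells, and 20 of 36 proliferation genes fell there; the DNA methylation bar counts Tet3, which is below background, among its falls. Of all probe sets above background, 22.1% were lower in VEGF-down cells.

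Proliferation genes were counted in the same comparisons. Of 36 measured, 34 were above background; 20 fell and 2 rose in VEGF-down cells with a median difference of -0.27, and 10 fell and none rose in VEGF-up cells (2 higher at an unadjusted p under 0.05), with a median of -0.09. Among the 34, 64.7% and 29.4% were called, against 45% and 20.8% of all probe sets above background. Their summed log2 level was 13.85 to 13.88 in GFP, 13.55 to 13.58 in VEGF-down and 13.70 to 13.80 in VEGF-up cells. Ezh2, Dnmt1, Hells and Chaf1b are known as genes whose RNA is higher in cycling cells, and the part of proliferation in their differences was not tested.

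Germline genes that DNA methylation keeps off in somatic cells stayed low. Of 14 measured, only Sycp3 and Tex19.1 were above background by their mean over the 12 arrays. Sycp3, a meiotic chromosome protein, had mean log2 levels of 2.94 in GFP, 3.26 in VEGF-down and 3.11 in VEGF-up cells. Its VEGF-down rise of 0.32 (adjusted p = 0.0209) crossed the background level with arrays that overlapped those of GFP, and Tex101 was called lower while below background. In VEGF-up cells limma called none of the 14, and 2 had an unadjusted p under 0.05.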

How the data were processed

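The authors deposited linear array intensities per probe set, for which the submitters' processing notes name GCRMA; steps beyond that are not given in the sources used here. The authors also deposited a table of changed genes per shRNA, with signed folds and T-statistics (scores) and p-values and q-values per the file headers, whose test is not described; these are quoted only where named. Of 17370 probe sets, 64 were controls; the other 17306 were tested, and 16464 carry a gene symbol from the platform table. Array medians lay between 35.6 and 37.1 intensity units, and 62.5% to 63.3% of probe sets were above background on each array, and the number of arrays limits the precision. Intensities were taken to log2 without offset. Background was the 95th percentile of the mean levels of 68 chemosensory receptor probe sets. limma 3.58.1 in R 4.3.3 was fitted to all 12 arrays with 1 mean per group (lmFit, eBayes with a variance trend), two-sided, with Benjamini-Hochberg adjustment over 17306 probe sets and a threshold of 0.05, and was tested on simulated data. "Rose", "fell", "higher" and "lower" among called genes mean an adjusted p under 0.05. The genes and lists were chosen with earlier results of these data known. Values on every array are given for silencing genes past the test against GFP without overlap and above background, and of the further lists the 4 largest called changes are named. Same-numbered arrays had residual correlations of -0.08 to 0.13, so the numbers were not taken to pair arrays. Alternatives were quantile normalization, median centring, spike-in scaling, an offset of 16, above-background probe sets only, no variance trend, only the compared groups, a replicate block, each array left out and a minimum change of 25%.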

Additional observations from a re-analysis of the deposited data

Results flagged for a closer look

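Of 111 gene and group sets of 4 arrays, 9 held an array far from the other 3 by Dixon's test, where chance gives about 1 in 20. In GFP cells these were Tet1 replicate 1 at 5.34 (others 4.81 to 4.83), Ezh1 replicate 4 at 5.31 (others 5.49), Hdac2 replicate 4 at 10.52 (others 10.74 to 10.76), Cbx8 replicate 2 at 5.87 (others 5.83) and Cbx2 replicate 2 at 3.79. In VEGF-down cells they were Setdb1 replicate 1 at 6.52 (others 6.67 to 6.68), Cbx8 replicate 1 at 5.93 (others 5.83), Ehmt2 replicate 2 at 5.80 (others 5.85) and Dnmt3b replicate 3 at 5.60 (others 5.57).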

How the results depend on the processing

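In VEGF-down against GFP, 2837 probe sets fell and 2521 rose. Median centring gave 8163 falls; spike-in scaling gave 13913 falls and 827 rises, with 30 silencing genes lower and 2 higher; and a minimum change of 25% left 1138 falls and 1177 rises, with 8 and 4 silencing genes. In VEGF-up against GFP (1126 falls and 1165 rises), median centring gave 3 silencing genes that rose; spike-in scaling gave 2696 falls and 242 rises and 5 silencing genes that fell; the minimum change left 443 falls and 276 rises and 0 silencing genes that fell. In VEGF-up against VEGF-down, median centring gave 9018 probe sets and 22 silencing genes higher, spike-in scaling 1416 probe sets and 3 silencing genes lower, and the minimum change 1225 and 1429 probe sets with 6 and 3 silencing genes. Signs turned with spike-in scaling in VEGF-down against GFP for Cbx5 (-0.10), Cbx6 (-0.14), Hdac2 (-0.028), Dnmt3b (-0.26), Rnf2 (-0.22) and Cbx8 (-0.24), and in VEGF-up against VEGF-down for Cbx6 (0.0378), and with median centring there for Ring1 (0.0366) and Cbx7 (0.0370). The cause was not tested.

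With the replicate number as a block, 2 silencing genes fell in VEGF-up cells (Rbbp7 at -0.09, adjusted p = 0.0331), and Dnmt1 in VEGF-down cells was at -0.14 with an adjusted p of 0.0516. Leaving out each array in turn gave 13 to 15 silencing genes that fell and 7 to 8 that rose in VEGF-down cells, and 1 to 2 and 1 to 1 in VEGF-up cells. The second fall was Rbbp7 without GFP replicate 2 and Sirt1 without GFP replicate 4. Over the shRNA groups it gave 11 to 12 higher and 5 to 7 lower in VEGF-up cells. Among VEGF-down calls, Tet3 was lost in 12 of 15 alternatives, Dnmt1 in 8 of 16, Rbbp4 in 6 of 16 and Tet1 in 3 of 16. In VEGF-up against VEGF-down, Rbbp4 and Cbx6 were lost in 8 of 16 each and Cbx2 in 7 of 16; with the replicate block Rbbp4 was at 0.08 (adjusted p = 0.0508) and Cbx6 at -0.09 (adjusted p = 0.0977). Of these genes, Rbbp4, Cbx6 and Dnmt1 were well above background, with GFP means of 10.70, 10.43 and 9.25, and their differences were small. Apart from these, small differences of dim genes are limited by signal over background, and no alternative adds arrays.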
